A study of Mus musculus with 2 samples.

Results

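The regions described here are gene deserts, the autosomal intervals of over 500000 bp between consecutive protein-coding genes. Gaps were read from the RefSeq gene table of GRCm38, and the 10 kb next to each flanking gene was left out. The rule gave 600 intervals, of which 15 were set aside because their lower gene lies, in the table, before the first read of its chromosome, so that the interval is not a stretch between neighbours. The other 585 are the deserts, out of 18499 gaps of any length. They covered 673 Mb, or 28.0% of the 2403 Mb of autosomal sequence, and 246 of them exceeded 1 Mb. Gap lengths ran from 500.5 kb to 4542 kb with a median of 871 kb. No count of ends entered the rule, though the first read of each chromosome decided which 15 were set aside. Desert windows and genes are located on GRCm38 throughout.

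Chromatin that is accessible to proteins is usually concentrated at promoters and at enhancers, the distal elements that raise transcription of a gene from a distance. Gene deserts are poor in promoters by definition, but many lie beside developmental genes and hold enhancers that act over long distances. They also hold long noncoding RNA (lncRNA) genes, microRNA genes and pseudogenes, which the rule does not count. In retina, as in brain, regulatory elements of neuronal transcription factor genes are often found far from any coding exon.

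The samples were neural retinas of adult C57BL/6 littermate mice, 1 wild type and 1 knockout for Gabra3, the X-linked gene of a GABA-A receptor subunit. Whether the knockout spans the whole gene or other tissues is not given in the sources used here. ATAC-seq was run on 20000 nuclei from each retina, with the Tn5 transposase cutting open DNA, and 75 bp single-end reads were sequenced. The measure was the distinct 5-prime end, a position and strand at which at least 1 read with a mapping quality of at least 10 begins. Every comparison of genotypes is between 2 libraries with no replicate check, so no test was made. Intervals in parentheses are exact (Clopper-Pearson) 95% intervals that cover counting error only. Ratios are given as the log2 of knockout ends divided by wild-type ends, after scaling both to all autosomal ends.

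The files held 9170838 wild-type and 9038110 knockout reads, and 7462427 and 7475033 distinct autosomal ends. The Gabra3 gene body (chrX:72432676-72656919) held 126 and 121 ends (log2 ratio -0.06, -0.43 to 0.31), so this locus did not check the genotype label. Cell type markers were counted within 500 bp of whichever end of the gene held more. Rod photoreceptor markers were open in both libraries. Nrl, a rod transcription factor, held 80 ends in wild type and 77 in knockout, and Gnat1, the rod transducin alpha subunit, 157 and 137. Sag, rod arrestin, held the fewest of the rod markers reported, 19 and 9. Bipolar cell markers (5 genes) summed to 144 and 158 ends, of which Prkca held 97 and 111 and Grm6 5 and 4. Muller glia markers (3 genes) summed to 154 and 138, of which Glul held 111 and 100. Both sums thus rest largely on 1 gene each. Marker sums of rarer retinal neurons were lower, at 33 and 37 for cones (3 genes) and 21 and 23 for amacrine and horizontal cells (4 genes). Ganglion cell markers (3 genes) summed to 24 and 43. The markers of retinal pigment epithelium (3 genes, 26 and 24 ends, of which Rgr held 21 and 18), lens (3 genes, 21 and 16), microglia (3 genes, 17 and 12) and endothelium (3 genes, 10 and 13) were in the same range as these, and 6 genes of other tissues held 1 to 51 ends each. Low counts thus do not set other tissues apart from rarer retinal cells. The desert share of reads was nearly the same in the 4 sequencing lanes of a library, at 12.08% ± 0.033 (SD over lanes) in wild type and 12.12% ± 0.032 in knockout. Lanes repeat the sequencing and not the animal.

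The strongest promoters inside the deserts belonged to lncRNA genes, and 3 are printed because each lies under or beside 1 of the 20 densest desert windows. They are RefSeq sequences of GRCm38.p6, 300 bases long, from 250 bases before to 50 after the annotated start. Capitals mark matches that do not overlap each other, on either strand, to GGGCGG, the core of the GC box bound by Sp and KLF factors, and to TAATCC, the core bound by the photoreceptor factor Crx.
Gm34507 (chr17:4908072-4908371, plus strand): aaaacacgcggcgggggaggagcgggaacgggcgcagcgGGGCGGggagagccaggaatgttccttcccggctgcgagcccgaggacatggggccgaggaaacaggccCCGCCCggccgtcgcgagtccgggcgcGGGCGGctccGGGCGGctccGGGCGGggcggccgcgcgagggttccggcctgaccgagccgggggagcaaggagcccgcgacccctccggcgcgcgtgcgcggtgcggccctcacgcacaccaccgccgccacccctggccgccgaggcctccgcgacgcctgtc
Gm33195 (chr13:43864305-43864604, plus strand): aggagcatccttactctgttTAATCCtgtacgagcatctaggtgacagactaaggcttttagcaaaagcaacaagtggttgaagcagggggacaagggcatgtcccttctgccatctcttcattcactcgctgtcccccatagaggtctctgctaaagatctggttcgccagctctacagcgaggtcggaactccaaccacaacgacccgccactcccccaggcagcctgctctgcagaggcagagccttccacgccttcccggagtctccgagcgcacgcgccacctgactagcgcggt
Gm26901 (chr1:7398047-7398346, minus strand): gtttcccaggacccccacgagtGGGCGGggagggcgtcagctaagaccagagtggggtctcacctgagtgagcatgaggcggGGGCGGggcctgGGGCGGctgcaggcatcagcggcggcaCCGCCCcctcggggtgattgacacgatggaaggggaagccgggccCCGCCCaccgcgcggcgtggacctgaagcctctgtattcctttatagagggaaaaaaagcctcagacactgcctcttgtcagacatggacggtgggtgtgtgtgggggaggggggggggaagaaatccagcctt
Gm34507 and Gm26901 are rich in G and C and carry several GC boxes, while Gm33195 carries a TAATCC and no GC box in this window. The Gm34507 promoter, between Nox3 and Arid1b, held 81 wild-type and 87 knockout ends. The Gm33195 promoter, between Cd83 and Jarid2, held 53 and 66. The Gm26901 promoter, between Pcmtd1 and Sntg1, held 56 and 61. Both libraries thus had these promoters open at similar levels.

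Promoters of this kind were rare in the deserts. The RefSeq promoter table placed 1988 promoters of 1658 genes there, none of them protein-coding by the rule. Of these promoters, 26 (1.31%) held at least 20 ends summed over both libraries, against 33.1% of 31396 autosomal promoters. That wider set includes protein-coding genes, so this contrast and those of letters below mix gene kind with location. Several of the 26 overlap each other, because each annotated start was counted singly, as at Gm33195 and Gm4258. The median desert promoter held 1 end. Letters GGGCGG stood in 5.68% of desert promoters and in 36.0% of all promoters, and TAATCC in 8.65% and 7.06%. The TATA-box letters TATAAA stood in 20.1% and 13.6%, and the E-box letters CAGCTG in 16.5% and 16.3%, both strands being searched. Taking for each gene its promoter with most ends, 7 of the 20 highest desert promoters held GGGCGG, 3 held TAATCC, 3 held TATAAA and 3 held CAGCTG. The end of TAATCC and the start of the complement of GGGCGG can share C bases. A match is a description of the letters and not a binding site.

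Desert DNA was the least accessible class of autosomal sequence examined, and to nearly the same degree in both libraries. Deserts held 957374 wild-type ends, 12.83% of all autosomal ends (12.81% to 12.85%), and 956316 knockout ends, 12.79% (12.77% to 12.82%), on 28.0% of the sequence. That is 1.42 ends per kb in each library, 0.458 times the autosomal mean in wild type and 0.457 times in knockout. Protein-coding gene bodies held 4.20 and 4.23 ends per kb. Longer gaps were less dense: gaps of up to 10 kb held 9.60 and 9.28 ends per kb, gaps of 50 to 100 kb held 3.22 and 3.23, and gaps of 200 to 500 kb held 2.15 and 2.15. The 10 kb edges left out of the deserts held 3.34 and 3.22. Deserts were also harder to map, with 10.8% and 11.3% of their reads below mapping quality 10 against 5.30% and 5.50% over all autosomes. How much of the lower density this accounts for was not tested. In bulk tissue, fewer cells with an open stretch and less opening per cell cannot be told apart.

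**Figure D1:**
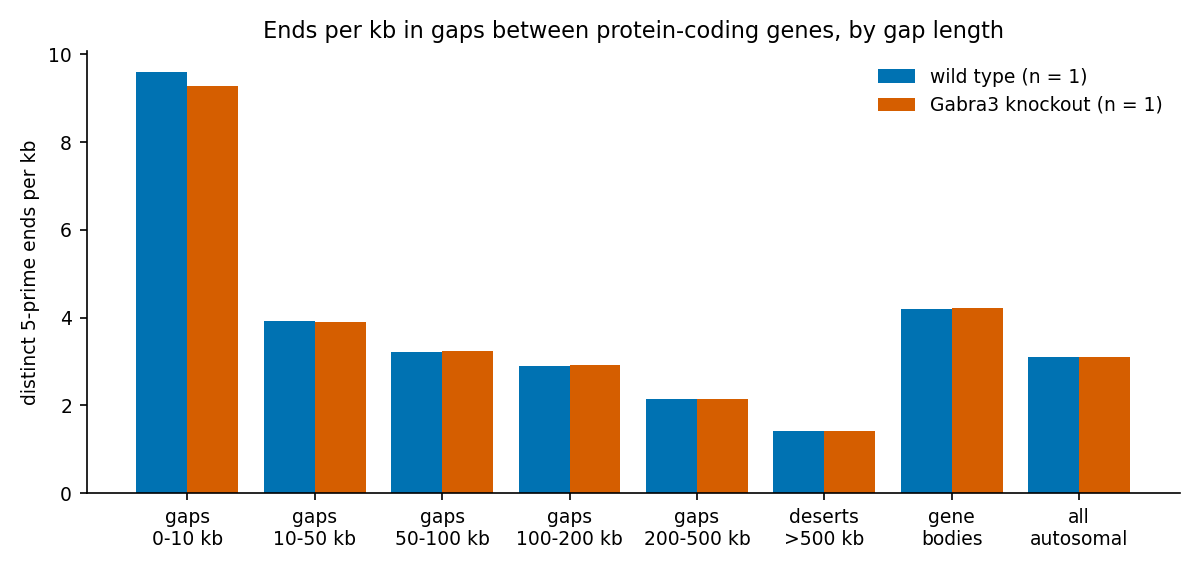
Distinct 5-prime ends per kb (vertical axis) in gaps between protein-coding genes grouped by length, in deserts, in gene bodies and in all autosomal sequence, with a blue bar for the wild-type library and an orange bar for the Gabra3 knockout library. Bars are highest in the shortest gaps, at 9.60 and 9.28, and lowest in the deserts, at 1.42.

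The 500000 bp limit did not separate sharply different intervals. The 5 gaps just inside it, from Spaca1 to Akirin2 (500.5 kb) up to Mindy3 to Pter (504.5 kb), held 1.77 to 6.75 ends per kb summed over both libraries. The 5 just outside, from Luzp2 to Siglech (499.3 kb) down to Psg29 to Ceacam5 (497.5 kb), held 1.17 to 6.16.

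Within deserts ends were sparser farther from genes. Each library held 1.81 ends per kb at 10 to 20 kb from the nearer flanking gene, 1.57 at 100 to 200 kb and 1.16 beyond 500 kb. Windows of 1 kb that held at least 20 ends summed over both libraries, called dense windows from here on, made up 0.761% of windows at 10 to 20 kb and 0.122% beyond 500 kb. Longer deserts were sparser as well: the median was 3.01 summed ends per kb in the 97 deserts of 500 to 600 kb and 2.32 in the 72 over 2000 kb. Distance and length move together here, because only the 246 deserts over 1 Mb contain sequence more than 500 kb from a gene.

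**Figure D2:**
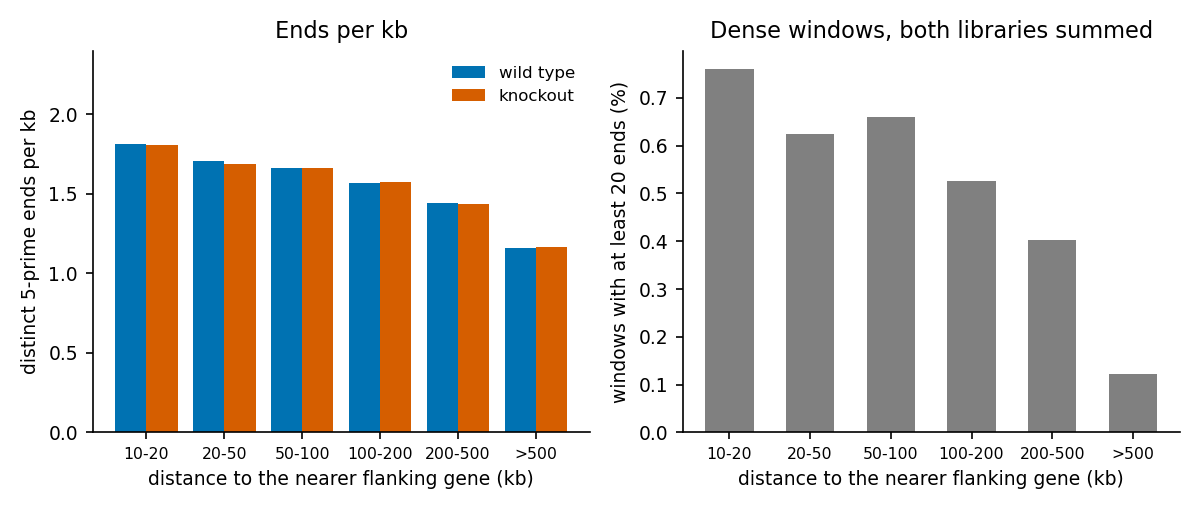
Left, distinct 5-prime ends per kb in desert windows by distance in kb to the nearer flanking gene, in the wild-type (blue) and knockout (orange) libraries. Right, the percentage of those windows with at least 20 ends summed over both libraries, which is 0.761% nearest to genes and 0.122% beyond 500 kb.

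The deserts differed widely among themselves. Summed over both libraries they held 0.636 to 17.6 ends per kb, with a median of 2.59 and quartiles at 2.30 and 3.14. Of the 585, 41 exceeded 5 ends per kb and 12 exceeded 10. These 12 made up 1.26% of desert sequence, held 5.63% of desert ends and 37.5% of dense desert windows, and none was longer than 1200 kb.

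The densest desert lay between Gm6569 and Adgrb1, an adhesion G protein-coupled receptor gene of brain (chr15:73839909-74516195). It held 5681 wild-type and 5844 knockout ends, or 17.6 per kb summed, and 213 of its windows (32.5%) were dense. The desert between Cd83, a surface marker gene of dendritic cells, and Jarid2, the gene of a Polycomb-associated protein (chr13:43803134-44730773), held 6475 and 6584 ends with 105 dense windows. That between Tbc1d22a and Tafa5, the gene of a secreted brain protein (chr15:86498504-87544218), held 7294 and 7232 ends with 202 dense windows. Both libraries ranked these deserts high, and the signal was not made by a few windows alone. Outside its dense windows the Gm6569 to Adgrb1 desert still held 13.0 ends per kb, its median window held 16 ends, and 98.5% of its windows held at least 1 end. In all 12 deserts above 10 ends per kb the median window held 9 to 16 ends, against 2 in the median desert, and 8.77 to 13.0 ends per kb fell outside dense windows. Few of their reads were poorly placed (0.512% to 1.86%).

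**Figure D3:**
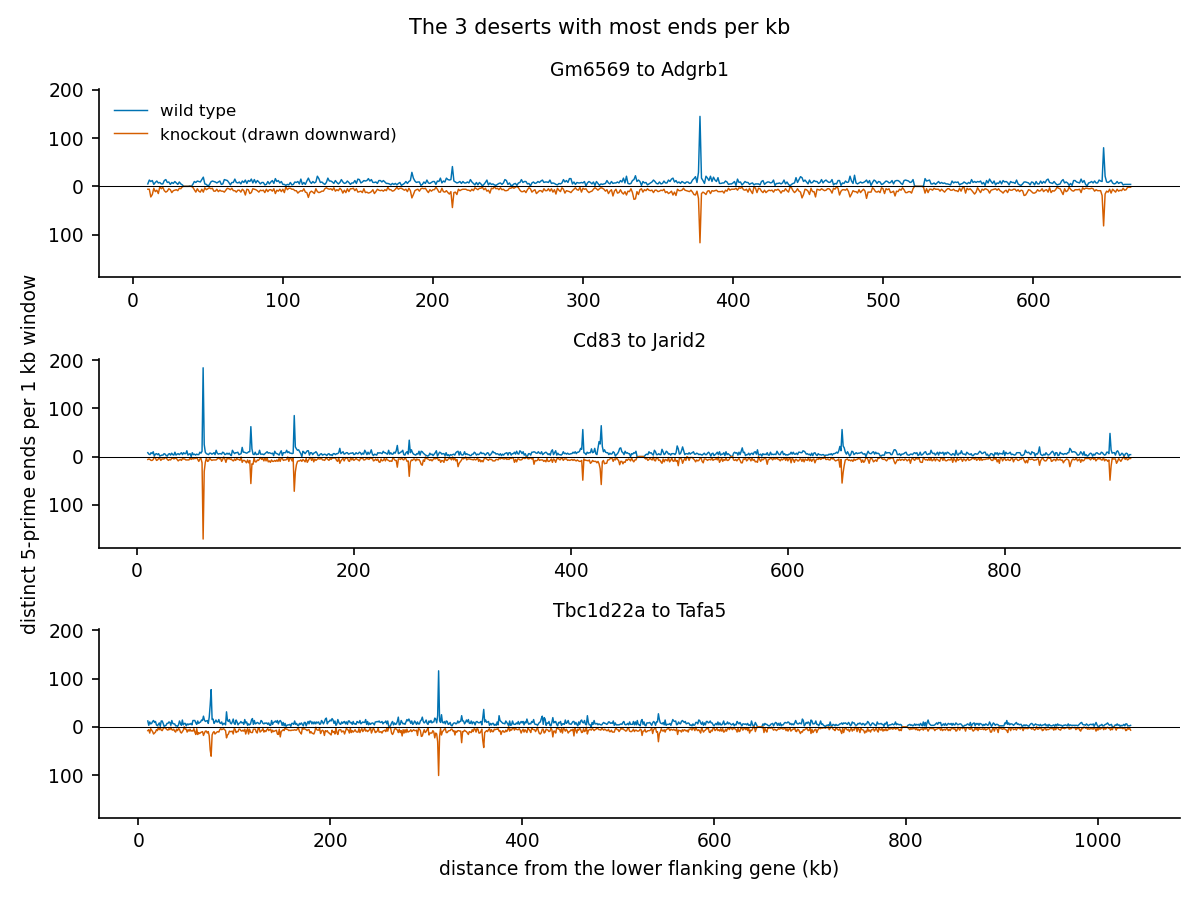
Distinct 5-prime ends per 1 kb window along the 3 densest deserts, against the distance in kb from the lower flanking gene, with wild type drawn upward in blue and knockout downward in orange. The same tall windows stand out in both libraries, and windows between them also hold ends, apart from 9 or 10 windows without any in each desert.

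Next in density came Trib2 to Lpin1 (12.9 ends per kb, 67 dense windows), flanked by the genes of a pseudokinase and of a phosphatidate phosphatase, and Matn1 to Ptpru (12.9, with 82), flanked by the genes of a cartilage matrix protein and of a receptor tyrosine phosphatase. Fbxw7 to Gatb (12.6, with 60) lies beside the gene of a ubiquitin ligase subunit. Enc1 to Arhgef28 (12.5, with 54), Gm4791 to Cadm1 (11.4, with 40), Runx1 to Setd4 (11.2, with 40) and Rasgef1b to Vamp9 (10.6, with 33) completed the 10 densest. Their flanking genes are landmarks, since the data do not tie a window to a target gene. The 5 deserts with most dense windows were also the 5 densest, and together they held 669 of the 2556 dense windows (26.2%).

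Most of the sparsest deserts had a large share of poorly placed reads. Gm46305 to Gm10476 on chromosome 12 held 203 wild-type and 201 knockout ends (0.636 per kb summed), and 77.8% of its reads had low mapping quality. Gm12887 to Gm10573 (0.818 per kb) and Gm38538 to Gm40862 (1.05 per kb) had 62.7% and 65.8% such reads. In Ube3a to Snurf, in the imprinted Prader-Willi and Angelman region, 364 and 355 ends (1.1 per kb) stood beside 70.4% of low-quality reads. Gm36448 to Dad1 (1.22 per kb, 47.7%) is a desert by the rule alone, since it holds 201 antigen receptor segments. Obox7 to Obox2 (1.34 per kb, 62.6%) and BC048507 to Mtrr (1.53 per kb, 46.4%) followed. The last 3 of the 10 had fewer poorly placed reads: 11.9% in Kif2b to Car10 (1219 and 1227 ends, 1.63 per kb), 10.8% in Kcnj2 to Gm11677 (526 and 508, 1.65 per kb) and 17.3% in S100a7l2 to Gm36323 (398 and 434, 1.66 per kb). The part of poor placement in these densities was not tested.

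The longest deserts were sparse in both libraries. Pcdh20 to Pcdh9, 4542 kb between protocadherin genes of neuronal adhesion, held 4722 wild-type and 4840 knockout ends (2.11 per kb summed) and 1 dense window. Olfm4 to Pcdh17 (4420 kb), Cntnap5b to Cdh20 (4278 kb) and Tenm3 to Aga (3989 kb) held 2.16, 2.44 and 2.20 ends per kb with 4, 5 and 2 dense windows. Celf4 to Pik3c3 (4511 kb), beside the gene of a neuronal RNA-binding protein, stood above them with 3.02 ends per kb and 20 dense windows.

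Dense windows were scarce in deserts, and the 100 windows with most ends in either library were also high in the other. Of 672686 desert windows, 2556 were dense (0.380%), against 3.18% of all autosomal windows and 4.92% of windows in gene bodies. They formed 2005 runs, the longest of 19 windows, held 4.25% of desert ends, and were absent from 151 deserts (25.8%). The count rests on the minimum of 20 ends: a minimum of 15 gave 6086 and a minimum of 30 gave 738. The 100 desert windows with most wild-type ends, at least 41 each, were chosen without the knockout library, where they held 22 to 230 ends with a median of 52.5. Their mean there was 44.4 times that of desert windows, and 84 of them were among the 100 with most knockout ends. Chosen the other way round, the 100 windows with most knockout ends held 25 to 208 wild-type ends, a mean 47.5 times that of desert windows.

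Leaving out 14 windows of repeated reads, described further on, the window with most ends was chr15:68362923-68363922, 104 kb from the zinc finger gene Zfat and 564 kb from Khdrbs3, with 208 wild-type and 230 knockout ends and no other gene of the table within 1 kb. Second came chr13:43864134-43865133, at the lncRNA Gm33195 printed above, with 184 and 171 ends. At this window 48.2% of reads were distinct, the lowest share among dense desert windows. The third was chr1:7397629-7398628, at the printed Gm26901 promoter, with 158 and 179. A window 236 kb from Myt1l, the gene of a neuronal transcription factor, held 174 and 153 (chr12:29290495-29291494). Both libraries were high in each of these, well above the desert mean of 1.42 ends per window.

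Of the 20 windows with most ends, 11 overlapped a lncRNA gene or lay within 1 kb of one, as did 28.6% of dense desert windows and 11.6% of all desert windows, and the other 9 were near no gene of the table. They fell in 17 deserts, and each held at least 174 ends. Windows in the Ythdf3 to Cypt12 desert lay at Mir124-2hg (chr3:17793038-17794037, 145 and 148 ends), the host gene of a neuronal microRNA, and at Gm30340 (chr3:17786038-17787037, 126 and 141). Windows at Dleu2 (chr14:61680834-61681833, 112 and 105), Dubr (chr16:50732155-50733154, 81 and 93) and the printed Gm34507 (chr17:4908262-4909261, 84 and 90) are further examples. Away from listed genes were chr15:74217909-74218908 in the densest desert (145 and 117) and chr13:83745080-83746079 between Mef2c and Tmem161b (122 and 110). Ends of lncRNA genes, where promoters lie, account for fewer: 8.92% of dense desert windows lay within 1 kb of such an end, beside 1.86% of all desert windows. Desert windows near such an end held 4.69 summed ends on average and the others 2.80. Most dense windows were thus at no listed lncRNA end. The gene table gives no exons, so exonic and intronic positions were not told apart.

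MicroRNA genes, whose short products repress messenger RNAs by pairing through their seed, lie in several of the densest desert stretches. The mature sequences of the host stretches described next are shown because members of the Mir17 cluster fall into groups by seed. They are RefSeq entries read on GRCm38.p6, and capitals mark the seed, bases 2 to 8.
mmu-miR-9-5p: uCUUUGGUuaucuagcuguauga
mmu-miR-9-3p: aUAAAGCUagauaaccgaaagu
mmu-miR-17-5p: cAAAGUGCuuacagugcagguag
mmu-miR-20a-5p: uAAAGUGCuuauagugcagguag
mmu-miR-18a-5p: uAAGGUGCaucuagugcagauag
mmu-miR-19a-3p: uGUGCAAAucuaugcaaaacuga
mmu-miR-19b-3p: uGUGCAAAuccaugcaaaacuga
mmu-miR-92a-3p: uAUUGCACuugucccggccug
mmu-miR-181a-5p: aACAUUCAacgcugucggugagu
mmu-miR-181b-5p: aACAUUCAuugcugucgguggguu
miR-17-5p and miR-20a-5p share the seed AAAGUGC, miR-19a-3p and miR-19b-3p share GUGCAAA, and miR-181a-5p and miR-181b-5p share ACAUUCA.

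Of 129 microRNA genes of the table in 57 deserts, 120 had a sequence, and 31 (24.0%) had a dense window within 10 kb on either side, as did 4.67% of all desert windows. Genes of a cluster share such windows: with genes up to 10 kb apart joined, 17 of 74 stretches (23.0%) had one. The 10 kb centred on a microRNA gene, 5 kb to each side, held a median of 40 summed ends. Over the deserts, 10 kb held a mean of 28.4, which is not a like measure. Genes of a cluster, as between Rtl1 and Dio3, were counted singly here though their 10 kb overlap. The highest was Mir124a-2, of the brain-enriched miR-124 family, in the Ythdf3 to Cypt12 desert, with 452 wild-type and 423 knockout ends in these 10 kb. Within 10 kb to either side of it, a wider span, lay 20 dense windows. The Mir17 cluster, known for its role in cell proliferation, lies between Slitrk5 and Gpc5: Mir17 had 224 and 212 ends in its 10 kb, of which the window chr14:115040145-115041144 held 91 and 93. At the hairpin of Mir17 itself 1 kb held 6 and 6 ends. Mir9-2, of the neural progenitor microRNA miR-9, lies by the lncRNA C130071C03Rik between Mef2c and Tmem161b, with 141 and 128 ends in its central 10 kb and 13 dense windows in the wider span. A dense window of that lncRNA (chr13:83730080-83731079) held 90 and 97 ends. Mir181a-1 and Mir181b-1, between Nr5a2 and Ptprc, had unequal libraries, with 67 wild-type and 29 knockout ends in the 10 kb of each. Of 66 genes with at least 40 summed ends, only these 2 neighbours, whose 10 kb overlap, were at least 2-fold lower in knockout. How often other 10 kb stretches pass 2-fold was not computed. None of the 66 was 2-fold higher on the scale with the pseudocount. Mir30d, between Zfat and Khdrbs3, came close to that with 25 wild-type and 50 knockout ends. Much of the difference at Mir181a-1 and Mir181b-1 came from the window chr1:137963449-137964448, with 34 and 10 ends (log2 ratio -1.72, -2.95 to -0.72). That window was named because it passed 2-fold. By comparison, Mir802 in the Runx1 to Setd4 desert held 65 and 63 ends and Mir205 between Camk1g and Plxna2 held 46 and 52, both close to equal.

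Deserts were also grouped by the gene families on their flanks. Of the 585, 97 had a developmental transcription factor gene on a flank, with a median of 3.03 summed ends per kb, and 74 of them (76.3%) held a dense window. The median over all deserts was 2.59, and 74.2% of all deserts held one. The 96 deserts flanked by cell adhesion or axon guidance genes were longer, at a median of 1768 kb against 871 kb, and sparser, at 2.36 ends per kb. Dense windows made up 0.201% of theirs, 0.364% in the transcription factor list, 0.165% beside the 39 deserts of ion channel and neurotransmitter receptor genes, and 0.502% in the 358 deserts of no list. Length moves with these lists, and its part in their densities was not tested.

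By name, the transcription factor deserts with most dense windows were Runx1 to Setd4 (3798 and 4449 ends, 40 dense windows), Mef2c to Tmem161b (2582 and 2306, with 32) and Sall3 to Galr1 (4128 and 4221, with 25). Mef2c encodes a MADS-box factor of neurons and muscle, and Sall3 a zinc finger factor of developing neurons. Sall3 to Galr1 also led the channel and receptor list through Galr1, a galanin receptor gene, ahead of Kcna4 to Mettl15 (2261 and 2298, with 4) and Kcne4 to Scg2 (745 and 698, with 4), which lie beside potassium channel genes. In the adhesion list Ncam1 to Plet1 led (3513 and 3483, with 46), ahead of Slc4a3 to Epha4, an ephrin receptor gene (6085 and 6130, with 43), and Gm4791 to Cadm1 (2877 and 2892, with 40). Olfr1505 to Tle4, the 1 desert with a chemosensory receptor gene, held 630 and 567 ends and no dense window. In each of these the log2 ratio was under 0.32 in size.

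A few windows held very many reads at few positions and were set apart from those above. In 14 windows of 7 deserts under 25% of reads were distinct (3.94% to 23.0%), out of 37 such windows on the autosomes. They held 80630 reads, 3.93% of all well placed desert reads, but 5591 ends, 0.292% of desert ends. The largest was chr2:98666673-98667672, between Lrrc4c and Iftap, with 10919 wild-type and 11898 knockout reads on 451 and 448 distinct ends. In the same desert 4 more windows were set apart, within chr2:98661673-98666672. The next were chr12:97061216-97062215 between Flrt2 and Galc (6992 and 5199 reads, 405 and 383 ends), chr10:96077519-96078518 between Eea1 and Btg1 (5377 and 4407 reads, 357 and 340 ends) and chr13:85126967-85127966 between Tmem161b and Ccnh (4992 and 3846 reads, 307 and 281 ends). The Ptprd to Tyrp1 desert had 3, led by chr4:80003743-80004742 with 3781 and 2924 reads. Knockout reads were more numerous in the Lrrc4c windows and fewer in these others, while distinct ends differed little. Over all 14, the log2 ratio was -0.05 (-0.13 to 0.02) on distinct ends. The smallest of the 14, between Cox7c and Edil3, had 32 reads on 3 ends.

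**Figure D4:**
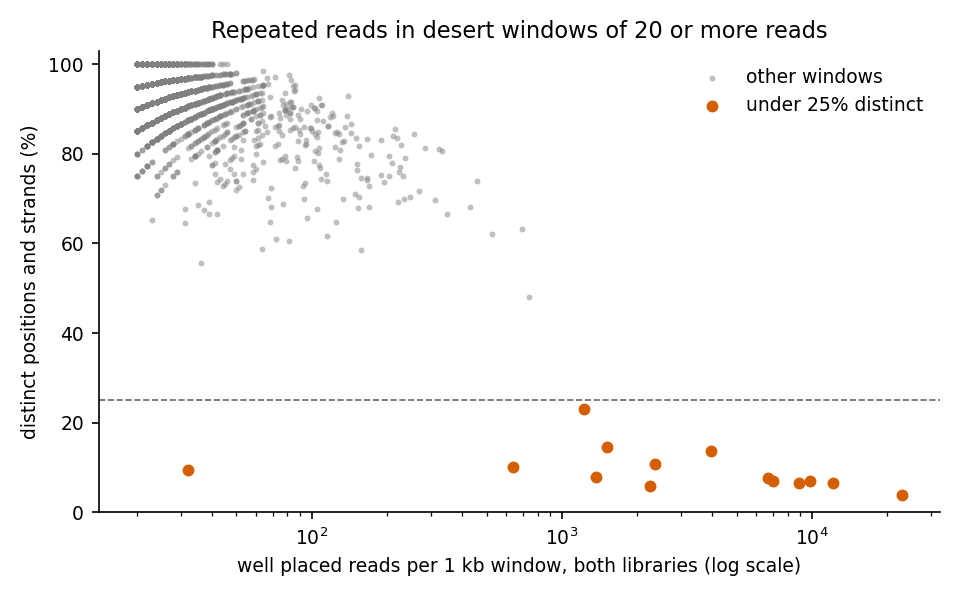
Each point is a 1 kb desert window with at least 20 well placed reads; the horizontal axis (log scale) gives its reads in both libraries and the vertical axis the percentage at distinct positions and strands. The 14 orange windows lie below the dashed line at 25%, between 3.94% and 23.0%, and all but 1 of them hold over 600 reads.

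Between genotypes the deserts as a whole were level. Their log2 ratio was -0.0040 (-0.0081 to 5.9e-05), and no desert reached a log2 ratio of 0.32 in size, the limit set for deserts. That is 0 of 585 higher and 0 of 585 lower, beside 0% of 4514 autosomal tiles of 500 kb for higher and 0% for lower. In 577 deserts even the bounds of the ratio stayed within 0.32 of 0. The ratios had an SD of 0.067 over deserts and of 0.078 over tiles, and the interval left 0 in 58 deserts (9.91%), of which 26 were higher and 32 lower, against 13.9% of tiles. At a 1.1-fold rule 8 deserts were higher and 16 lower, and the share of tiles past 1.1-fold was not computed. The libraries had no replicates, so a difference of this size between 2 animals of 1 genotype was not measured.

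**Figure D5:**
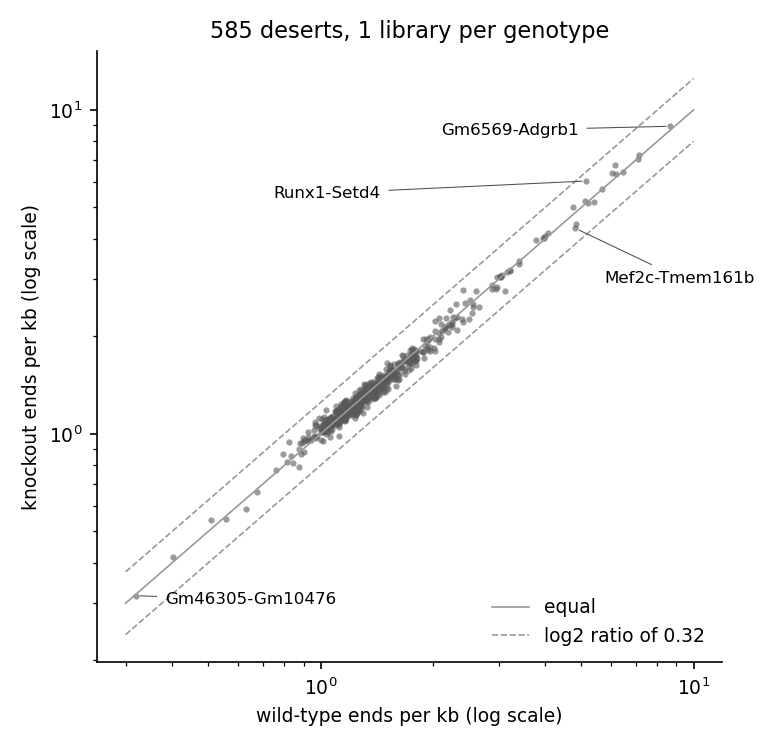
Each point is 1 of 585 deserts, with distinct 5-prime ends per kb in the wild-type library (horizontal) and in the knockout library (vertical), both on log scales. The solid line marks equal values and the dashed lines a log2 ratio of 0.32 either way, and no point lies beyond the dashed lines once scaled to library totals.

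The desert with the highest ratio was Runx1 to Setd4, beside the gene of a transcription factor of blood and sensory neurons (chr16:92826075-93583456), with 3798 wild-type and 4449 knockout ends and a log2 ratio of 0.23 (0.16 to 0.29). The excess lay on both strands (0.21 and 0.24), in the part nearer Runx1 and the part nearer Setd4 (0.20 and 0.26), and in dense and other windows (0.23 and 0.22), so it was spread along the desert. Dact1 to Daam1, between genes of Wnt signalling, held 1184 and 1363 ends (0.20, 0.087 to 0.31), and Sema3d to Sema3a, between genes of secreted axon guidance signals, held 532 and 611 (0.20, 0.027 to 0.37). In Sema3d to Sema3a the ratio was 0.04 on the plus strand and 0.34 on the minus strand. Matn1 to Ptpru, among the densest, stood at 0.13 (0.077 to 0.19), with 0.03 on the plus strand and 0.24 on the minus strand.

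The lowest ratios were in Icos to Pard3b (986 and 866 ends; -0.19, -0.32 to -0.056), Zfp804b to Steap4 (667 and 589; -0.18, -0.34 to -0.020) and Ndfip2 to Spry2 (1756 and 1552; -0.18, -0.28 to -0.081). In Zfp804b to Steap4 the ratio was -0.05 on the plus strand and -0.30 on the minus strand. In Ndfip2 to Spry2 it was -0.06 (-0.21 to 0.086) in the part nearer Ndfip2. In the part nearer Spry2 it was -0.28 (-0.42 to -0.15). Icos encodes a T-cell costimulator and Spry2 an inhibitor of growth factor signalling. Mef2c to Tmem161b had 2582 and 2306 ends (-0.17, -0.25 to -0.084), lower on both strands and in both dense (1071 and 923 ends) and other windows. These 8 deserts were named from their values, as the extremes of 585 or from the lists above, and none reached 0.32 in size.

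Dense desert windows together were slightly lower in the knockout library. They held 42022 wild-type and 39306 knockout ends, a log2 ratio of -0.10 (-0.12 to -0.079), and all dense autosomal windows had -0.04 (-0.044 to -0.039). Desert windows that were neither dense nor set apart were level at 0.00 (-0.0039 to 0.0044). Scaled to dense autosomal windows in place of all autosomal ends, dense desert windows had -0.057. The lower signal of the knockout library in dense windows everywhere thus moved with this result, and its part was not tested.

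Single dense windows past 2-fold were about as frequent as elsewhere for higher, and somewhat more frequent for lower. In the knockout library 85 of 2556 were at least 2-fold higher (3.33%), beside a background of 2.82% of dense autosomal windows, and 136 were lower (5.32%), beside 3.25%. Desert windows were weaker than the background, with a median of 24 ends against 28, so windows of like strength are the closer comparison. Of those with 20 to 29 ends 4.29% were higher and 6.22% lower in deserts, against 4.69% and 5.01% over all autosomal sequence, and with 30 to 49 ends 1.36% and 4.47% against 1.47% and 2.69%. None of the 223 desert windows with at least 50 ends was past 2-fold, and such windows were rare on all autosomes too. There 0.27% were higher and 0.37% lower at 50 to 99 ends, and 0% and 0.0097% at 100 or more. At these depths a 2-fold difference rests on few ends, and most intervals are wide.

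Of the higher windows, the 5 with most ends were chr4:131009477-131010476 between Matn1 and Ptpru (11 wild-type and 23 knockout ends; log2 ratio 1.03, -0.033 to 2.25), chr3:133615137-133616136 between Tet2 and Cxxc4 (10 and 22), chr15:73851909-73852908 and chr15:74294909-74295908 between Gm6569 and Adgrb1 (10 and 22 each), and chr3:85517199-85518198 between Fbxw7 and Gatb (8 and 23; 1.46, 0.31 to 2.89). The interval included 0 in 4 of these 5. Of the 5 lower windows with most ends, the Nr5a2 to Ptprc window beside Mir181a-1 had the lowest ratio, though weaker windows among the 136 went lower, and chr3:134296164-134297163 between Cxxc4 and Tacr3 held 33 and 15 ends (-1.11, -2.13 to -0.22). The others were chr13:44229134-44230133 between Cd83 and Jarid2 (31 and 15), chr15:68605923-68606922 between Zfat and Khdrbs3 (31 and 13) and chr9:49867394-49868393 between Ncam1 and Plet1 (29 and 12). All 5 of these lower windows had intervals below 0, as extremes chosen among 2556.

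Strong desert windows were lower in knockout at the median, as weaker dense ones were. The median log2 ratio was -0.099 at 20 to 29 ends and -0.093 at 30 to 49. It was -0.198 at 50 to 99 ends and -0.095 at 100 or more. Over all autosomal sequence the last 2 medians were -0.052 and -0.045. Of the 20 desert windows with most ends, 10 were higher in wild type and 19 had an interval that included 0. The exception was chr13:84347967-84348966, at the lncRNA Gm41011 between Tmem161b and Ccnh, with 135 wild-type and 95 knockout ends (-0.51, -0.90 to -0.12).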

How the data were processed

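Neural retina of 1 wild-type and 1 Gabra3 knockout mouse was measured by ATAC-seq. Per the submitters' processing notes, the authors used Trimmomatic 0.33, BWA (version not given in the sources used here) and bedtools 2.23.0 with GRCm38. Each line of the deposited files is 1 aligned read, not normalized, and the deposited score is its mapping quality. The coordinates in the deposited files gave the 5-prime end of each 75 bp read, 1-based. No Tn5 offset was added. Reads of mapping quality at least 10 were counted once per position and strand (Python 3.11.15, numpy 2.4.6, pandas 2.3.3), because any removal of duplicates is not given in the sources used here. Positions of genes came from RefSeq (GRCm38.p6), which gives no exons. Windows of 1 kb were tiled from the lower edge of each desert. A window was dense with at least 20 summed ends, and set apart when under 25% of at least 20 reads were distinct. Ratios used a pseudocount of 0.5, with intervals from scipy 1.17.1. With 1 library per group no test was made. Counting and ratios were tested on simulated data. Window sequences were not used here. Deserts were named by a rule: the 5 longest, the 10 densest and sparsest, the 5 with most dense windows, the ratio extremes, and 3 per flank list, and windows as the 20 with most ends, the 10 set apart with most reads and 5 past 2-fold each way. Not all are named in the text. The ratio extremes, Mef2c to Tmem161b, the microRNA genes and the promoters were added after their values were seen. The members and lists were chosen with earlier results of these data known. Other settings changed the mapping quality, edges, gap length, gene kinds, repeats, scaling, thresholds and windows. The summed level of the rod marker list is not reported here.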

Additional observations from a re-analysis of the deposited data

How the results depend on the processing

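The lower density of deserts held under each setting tried, and its size moved most with which gaps were counted. Relative to the autosomal mean it was 0.453 in wild type and 0.452 in knockout at mapping quality 30, 0.450 and 0.450 without 50 kb at each edge, 0.412 and 0.411 in intervals over 1000000 bp, 0.371 and 0.373 in gaps between genes of any kind, and 0.431 and 0.433 with all reads kept. It was 0.457 and 0.456 without runs of 20 or more windows that hold no read. Over all 600 intervals it was 0.441 and 0.440, and without deserts of antigen receptor segments 0.460 and 0.459, both chosen after seeing the data. The log2 ratio of deserts was 0.0066 in gaps between genes of any kind and 0.0049 with all reads kept. It was -0.020 scaled to windows that are not dense and 0.037 scaled to dense windows. Its sign thus depends on which gaps are counted, on whether repeats are kept and on the scaling. At 1.1-fold, 8 deserts were higher and 16 lower, with no share of tiles to set beside them. With all 600 intervals 1 passed the limit of 0.32 (log2), as higher. Dense desert windows numbered 6086 at 15 ends, 738 at 30 ends, 1099 in windows of 500 bp, 1035 in intervals over 1000000 bp and 118 in gaps between genes of any kind. Past 2-fold, 28 of 1035 were higher and 69 lower in intervals over 1000000 bp, and 2 and 10 of 118 in gaps between genes of any kind. The background of dense autosomal windows for these 2 settings is unchanged, at 2.82% higher and 3.25% lower. At 30 ends 7 of 738 were higher and 23 lower, and at 1.5-fold 300 of 2556 were higher and 419 lower. No autosomal share was computed for all windows of at least 30 ends or at 1.5-fold. In gaps between genes of any kind 5 windows were set apart, and windows chosen in wild type had 10.6 times the knockout mean. The 500 windows with most wild-type ends had 20.2 times that mean, in place of 44.4 for 100. Fewer windows enter these last gaps and the intervals over 1000000 bp by construction. Ends moved to the Tn5 insertion site, chosen after seeing the data, changed none of these results by over 1.5 times. Single windows hold few ends, which limits them to large ratios. No paired analysis was possible because each genotype had 1 library.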
